A study of Mus musculus with 6 samples.

Results

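Tudor domain genes of the germ granule were read on 6 Affymetrix mouse 3' arrays of sorted elongating spermatids, the condensing haploid cells that follow meiosis. The genes were the 10 symbols Tdrd1, Tdrd3, Tdrd5, Tdrd6, Tdrd7, Tdrd9, Tdrd12, Tdrkh, Rnf17 and Stk31, and every probe set annotated to exactly 1 of them was taken, which gave 16 of the 45037 probe sets that are not Affymetrix controls. These 16 read 9 of the genes. Tdrd6, which organises the chromatoid body, had no probe set of that kind and is not analysed here. Rnf17 had 4 probe sets, Tdrd3 had 3, Tdrd7 and Stk31 had 2 each, and the other 5 genes had 1 each.

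All mice were of the outbred ICR strain, labelled wildtype and adult, and lentivirus encoding GFP was delivered to their testes when they were 5 weeks old. Cells positive for GFP were collected as elongating spermatids 1 week after that, so every group had received a vector. The vectors were shMiwi:GFP, with a short hairpin RNA named for Miwi (the PIWI protein Piwil1), shCaf1:GFP, with a hairpin named for Caf1 (taken here as the deadenylase gene Cnot7), and the control pSilencer:GFP, listed as a vector with no named target. There were 2 arrays for each of these 3 groups, and the labels name them biological replicates. The number of animals behind an array is not given in the sources used here, so the p-values measure only the spread between these arrays. Part of that spread is borrowed from other probe sets of like intensity.

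Tudor domains are folds that bind methylated arginine, and in male germ cells they dock on the methylated arginines of PIWI proteins. Proteins with repeated Tudor domains build the germ granules of spermatocytes and the chromatoid body of round spermatids, where piRNAs are made and RNA is sorted. In the mouse, loss of many of these proteins releases transposons or stops spermatids from maturing. Tdrd3 differs from the others, as a broadly expressed methylarginine reader that works with topoisomerase 3-beta.

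Values are deposited MAS5 signals, whose trimmed mean is 500 for each array, and tests used log2(signal + 16), a scale that understates the change of dim probe sets. Each difference came from a limma fit on the 4 arrays of the 2 groups compared, with Benjamini-Hochberg adjustment over all 45037 probe sets and a threshold of 0.05. The control arrays stood apart before any gene was considered. The hybridization controls are spiked-in labelled RNAs of constant amount, and relative to their shRNA mean they read between 0.806-fold and 1.20-fold on single shRNA arrays, 82.3-fold on control 1 and 16.2-fold on control 2. Pearson's r across probe sets, on the log2(signal + 16) scale, was 0.979 for the shMiwi pair, 0.974 for the shCaf1 pair and 0.480 for the control pair. Differences are therefore also given after each array was rescaled on its 18 hybridization control probe sets. In such bulk arrays fewer cells of a type and less RNA per cell cannot be told apart.

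The labelled cell type was checked on 13 elongating spermatid markers, among them the protamines and transition proteins. Their median percentile within an array was 98.3 and 98.0 in shMiwi, 99.3 and 99.4 in shCaf1, and 36.3 and 99.4 in control. The typical marker of the sorted stage was thus below the middle of control 1 and near the top of every other array. Summed over the 13 genes, taking the brightest probe set of each, the deposited signal came to 143473 and 130704 in shMiwi, 201176 and 214591 in shCaf1, and 6041 and 744950 in control. Piwil1, the shMiwi target, read 9779.6 and 10392 in shMiwi, 21881 and 22442 in shCaf1, and 1445360 and 292542 in control. It was lower in shMiwi than in shCaf1 by a log2 difference of -1.14 (SE 0.11, limma adjusted p = 0.0136), and by -0.74 (adjusted p = 0.0608) on the scale of the hybridization controls. Against control, Piwil1 differed by -6.01 in shMiwi and -4.87 in shCaf1 on the deposited scale (limma adjusted p = 0.0424 and 0.0820). After rescaling these differences were -0.62 (95% interval -17.8 to 16.5) and 0.12 (-24.8 to 25.0), so the gap to control depended on the scale. The rescaled SD of Piwil1 was only 0.22 in shMiwi, 0.065 in shCaf1 and 0.026 in control. These wide intervals thus come from the variance that the fit's intensity trend expects for so bright a probe set. They do not measure the spread of these Piwil1 readings. The brightest of 3 Cnot7 probe sets read 4365 and 5012 in shMiwi, 3633 and 4329.8 in shCaf1, and 2003570 and 188877 in control. On control 1 this was the brightest value of the array. Both knockdowns read far below both control arrays, so the comparison with control shows no fall particular to shCaf1. Between the knockdowns all 3 Cnot7 probe sets averaged lower in shCaf1 than in shMiwi, by 0.24, 0.73 and 0.38, without passing (limma adjusted p = 0.431, 0.0655 and 0.377). After rescaling on the hybridization controls these differences were 0.63, 1.12 and 0.76, and the second passed as higher in shMiwi (adjusted p = 0.0761, 0.0206 and 0.0945).

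Against the control arrays, Tudor probe sets that passed as higher in shMiwi spermatids differed by between 2.70 and 4.47 on the log2 scale. Of the 16 probe sets, 8 rose and 1 fell in shMiwi, and the rises came from 6 genes: Tdrd1, Tdrd5, Tdrd7, Tdrd9, Rnf17 and Stk31. Over all probe sets 4.90% were called higher and 13.8% lower in that comparison. The median difference of the 16 was 2.87, beside -1.20 over all probe sets. For shCaf1 against control, 6 rose and 0 fell, from Tdrd5, Tdrd7, Tdrd9, Rnf17 and Stk31, where 3.72% of all probe sets were called higher and 9.07% lower. The median of the 16 was 2.60 in shCaf1, beside -1.20 over all probe sets. Both comparisons use the same control arrays. Without a test, 11 of the 16 read higher on both shMiwi arrays than on either control array, beside 19.4% of all probe sets, and 4 read lower, beside 54.4%. For shCaf1 these counts were also 11 and 4, beside 18.9% and 54.1% of all probe sets.

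The adjusted p-values of these calls all lay close to the threshold, between 0.0418 and 0.0477 for shMiwi and at 0.0483 for shCaf1, and none passed after quantile normalization. Leaving out shMiwi replicate 1 or 2 ended all shMiwi calls (0 of 16), and leaving out shCaf1 replicate 1 or 2 ended all shCaf1 calls (0 of 16). Without control replicate 1 the probe sets called higher in shMiwi differed by between 2.89 (Tdrd5) and 5.75 (Stk31 1425317_x_at). Without control replicate 2 they differed by between 2.50 (Tdrd5) and 5.67 (Rnf17 1438820_at). The probe set called lower, Tdrd7 1459216_at, stood at -3.29 and -2.15. In these fits the lone array is assumed to vary like the other group.

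**Figure D1:**
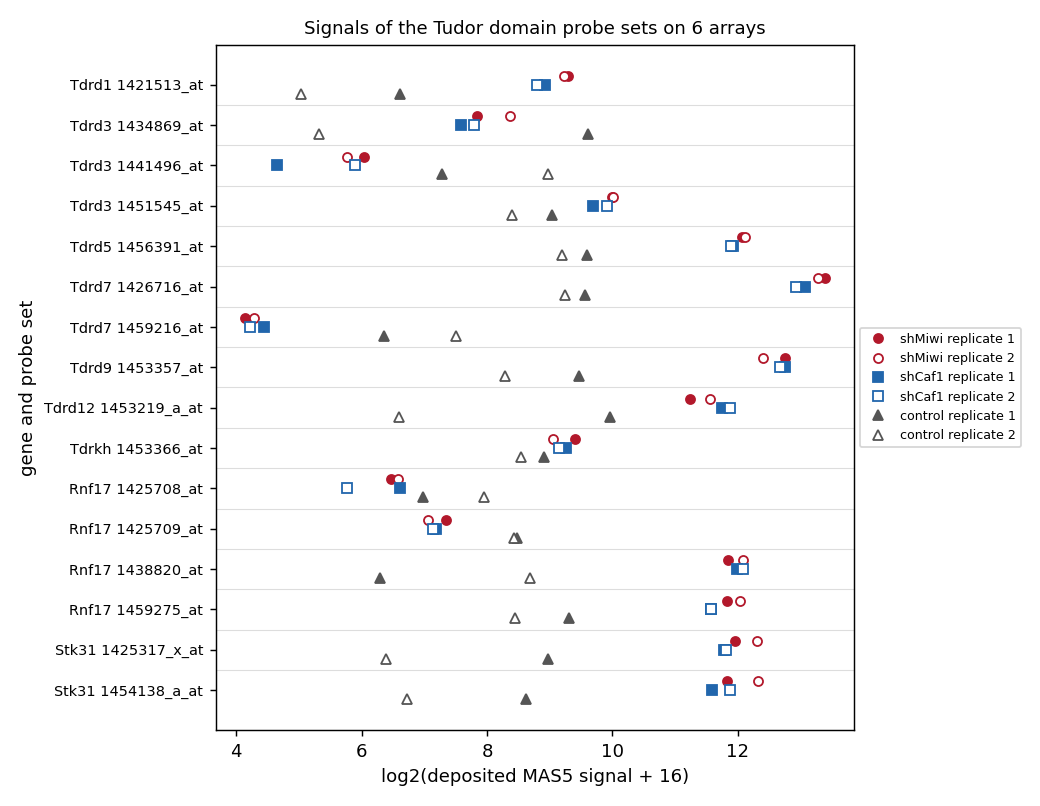
Deposited MAS5 signal, as log2(signal + 16), of each of the 16 Tudor domain probe sets (rows) on the shMiwi (circles), shCaf1 (squares) and control (triangles) arrays, with replicate 1 filled and replicate 2 open. The shRNA arrays lie close together in most rows, and the control arrays lie to the left of them in 11 rows.

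Tdrd7, Tdrd5, Tdrd1, Rnf17 and Stk31 are described first. Tdrd7, which also carries LOTUS domains that bind RNA and remodels the chromatoid body, was read by a bright and a dim probe set. The bright probe set 1426716_at read 10653 and 9852 in shMiwi, 8558 and 7719.8 in shCaf1, and 739.6 and 589 in control. No shRNA array overlapped a control array, and the replicates of every group lay close together. The log2 difference was 3.92 (SE 0.50, limma adjusted p = 0.0418) for shMiwi and 3.59 (SE 0.48, adjusted p = 0.0483) for shCaf1. The second Tdrd7 probe set, 1459216_at, read 1.60 and 3.47 in shMiwi, 5.71 and 2.67 in shCaf1, and 66.0 and 166 in control. All its shRNA values lay below the constant of 16, and it was the 1 probe set that fell in shMiwi (log2 difference -2.72, SE 0.63, adjusted p = 0.0477), beside -2.60 in shCaf1 (adjusted p = 0.0585). On the scale of the hybridization controls it stood at -0.15 (adjusted p = 0.662), and it did not pass there.

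Tdrd5, a LOTUS and Tudor domain protein needed in the mouse for transposon silencing and for the chromatoid body, read 4283 and 4388 in shMiwi, 3853 and 3779 in shCaf1, and 753 and 571 in control with its probe set 1456391_at. Its groups did not overlap and both control arrays were low. The difference was 2.70 (SE 0.49, limma adjusted p = 0.0418) for shMiwi and 2.51 (SE 0.47, adjusted p = 0.0483) for shCaf1.

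Tdrd1, a protein of the granules between mitochondria that binds the PIWI protein Piwil2, was dimmer, with 607 and 585 in shMiwi, 469.7 and 430.5 in shCaf1, and 82.0 and 16.8 in control. The shRNA arrays lay above both control arrays, whose values differed several-fold. Tdrd1 rose in shMiwi by 3.43 (SE 0.77, limma adjusted p = 0.0459), and the difference of 3.04 in shCaf1 did not pass (SE 0.79, adjusted p = 0.0614).

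Rnf17, a RING finger and Tudor protein that restrains secondary piRNA production in mouse meiotic cells, was read by 4 probe sets that fell into a bright and a dim pair. The bright probe set 1438820_at read 3641 and 4331 in shMiwi, 4028 and 4297 in shCaf1, and 62.2 and 395 in control. The bright probe set 1459275_at read 3592 and 4166 in shMiwi, 3030.5 and 3011 in shCaf1, and 619 and 333 in control. Both bright probe sets were far above control on every shRNA array. They rose by 4.47 (SE 0.91, limma adjusted p = 0.0424) and 3.05 (SE 0.55, adjusted p = 0.0418) in shMiwi. In shCaf1 they rose by 4.54 (SE 0.90) and 2.69 (SE 0.53), both at adjusted p = 0.0483. The dim pair, 1425708_at and 1425709_at, read between 38.4 and 147 on the shRNA arrays and between 110 and 339 on the control arrays, with differences between -0.94 and -1.29 that did not pass (adjusted p between 0.150 and 0.324). After rescaling on the hybridization controls the dim pair was higher than control as well, by 2.17 and 2.62 in shMiwi (adjusted p = 0.00368 and 0.00205) and by 1.53 and 2.23 in shCaf1 (adjusted p = 0.0370 and 0.00710).

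Stk31, a Tudor protein with a kinase-like domain that is found with Piwil1 in mouse testis, had a pair of bright probe sets with similar readings. Probe set 1425317_x_at read 3963 and 5056 in shMiwi, 3485 and 3587 in shCaf1, and 486 and 67.5 in control, and 1454138_a_at read 3630.1 and 5103 in shMiwi, 3060.2 and 3754 in shCaf1, and 377 and 89.2 in control. Every shRNA array was several-fold above the higher control array. In shMiwi both rose, by 4.46 (SE 0.96, limma adjusted p = 0.0443) and 4.41 (SE 0.79, adjusted p = 0.0418). In shCaf1 the second rose by 4.07 (SE 0.77, adjusted p = 0.0483) and the first, at 4.12, did not pass (SE 0.95, adjusted p = 0.0532).

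The members with helicase domains were Tdrd9 and Tdrd12. Tdrd9, a partner of the nuclear PIWI protein Piwil4 in transposon silencing, read 6855 and 5355 in shMiwi, 6885 and 6486 in shCaf1, and 693 and 295 in control. It rose by 3.69 in shMiwi (SE 0.62, limma adjusted p = 0.0418) and by 3.83 in shCaf1 (SE 0.60, adjusted p = 0.0483), with no overlap of the groups. Tdrd12, which is needed for secondary piRNAs in the mouse, read 2399 and 2986 in shMiwi, 3419.8 and 3731 in shCaf1, and 984 and 80.6 in control. Control 1 lay far above control 2, and its differences of 3.11 in shMiwi (SE 1.19, adjusted p = 0.117) and 3.53 in shCaf1 (SE 1.18, adjusted p = 0.0950) did not pass.

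Tdrkh, the mitochondrial Tudor and KH domain protein of the step that trims piRNAs, read 659 and 514 in shMiwi, 594 and 554 in shCaf1, and 467 and 357 in control. The groups did not overlap, but the differences of 0.49 in shMiwi (95% interval -0.85 to 1.84, limma adjusted p = 0.478) and 0.47 in shCaf1 (-0.80 to 1.74, adjusted p = 0.475) were within the error.

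Tdrd3, the member outside the piRNA pathway, gave 3 probe sets with 3 patterns. Probe set 1451545_at read 1002 and 1012 in shMiwi, 810.4 and 952 in shCaf1, and 509.6 and 321 in control, a difference of 1.28 in shMiwi (SE 0.52, limma adjusted p = 0.131) and 1.09 in shCaf1 (SE 0.51, adjusted p = 0.176). With probe set 1434869_at the readings were 214 and 315 in shMiwi, 176 and 205 in shCaf1, and 769 and 24.2 in control, so the control arrays lay on both sides of the others. Against control 1 alone the difference of this probe set was -1.51 in shMiwi and -1.93 in shCaf1. Against control 2 alone it was 2.78 in shMiwi and 2.36 in shCaf1, so the sign depended on the control array kept. The dim 1441496_at read 49.5 and 38.5 in shMiwi, 9.11 and 43.2 in shCaf1, and 140.4 and 489 in control, and did not pass (-2.23 and -2.86, adjusted p = 0.108 and 0.0889). In the main fits of the 2 groups compared, no Tdrd3 probe set passed on the deposited scale. With all 6 arrays in 1 model 1451545_at passed in shMiwi (adjusted p = 0.0444) and 1441496_at in shCaf1 (adjusted p = 0.0341). With a term for the replicate number in the fit, 1441496_at also passed in shCaf1 (limma adjusted p = 0.0425).

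After rescaling on the hybridization controls, 14 of the 16 probe sets were higher in shMiwi and 14 in shCaf1, and 0 were lower in either. Of all probe sets 67.5% were called higher and 0.0666% lower in shMiwi there, and 59.0% higher and 0.0466% lower in shCaf1. Medians of the 16 were 6.19 in shMiwi and 5.64 in shCaf1, beside 1.93 and 1.62 over all probe sets. The exceptions were the dim probe sets of Tdrd7 and Tdrd3. Tdrkh passed on that scale, with differences of 4.57 in shMiwi and 4.17 in shCaf1 (limma adjusted p = 0.000376 and 0.00120). Its rescaled signals were 700.4 and 637 in shMiwi, 541 and 461 in shCaf1, and 5.67 and 22.02 in control. Rescaled control signals of the 16 probe sets ran from 0.76 to 36.3, most of them below the constant of 16. The constant narrows their spread. For Tdrd1 the SD of the control arrays was 1.12 on the deposited scale and 0.0022 after rescaling. Calls against control on that scale thus set shRNA signals against values near the floor, and their p-values do not measure the full control spread.

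**Figure D2:**
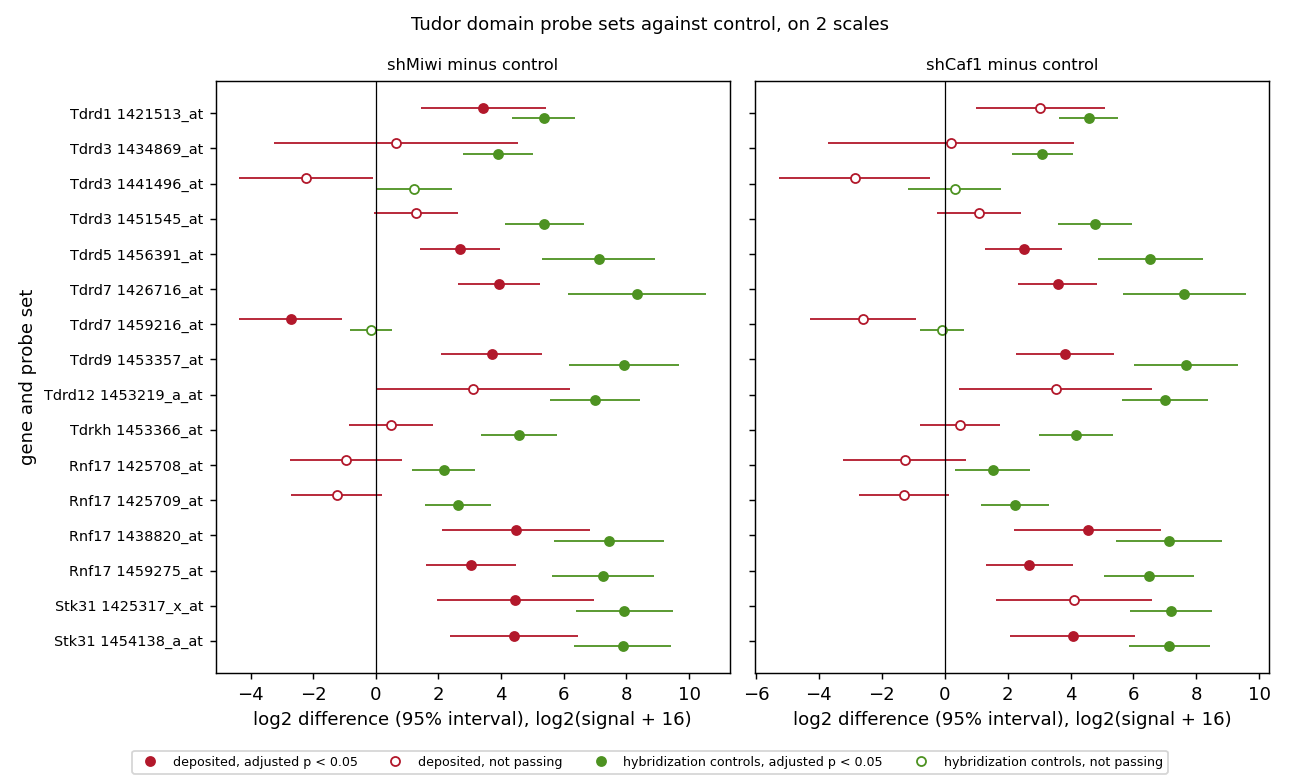
Log2 differences with 95% intervals of each Tudor domain probe set for shMiwi minus control (left) and shCaf1 minus control (right), on the deposited scale (red) and after rescaling on the hybridization controls (green); filled points have an adjusted p under the threshold of 0.05. Rescaling moves every row to the right, and 14 of 16 rows pass on that scale in each panel.

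A measure that no scaling of an array can change is the rank of a probe set within its array. By percentile, 11 of the 16 probe sets, from all 9 genes, stood higher on each of the 4 shRNA arrays than on either control array, beside 24.8% of all probe sets. One probe set stood lower on all 4, the dim one of Tdrd7, beside 27.9% of all probe sets. The 8 probe sets with a mean signal of at least 1000 on the shRNA arrays, from Tdrd5, Tdrd7, Tdrd9, Tdrd12, Rnf17 and Stk31, lay between percentiles 92.5 and 99.2 on all 4 of those arrays. On the control arrays the same 8 lay between 17.5 and 84.2 on control 1 and between 26.8 and 78.7 on control 2. Because these 8 were chosen by their signal on the shRNA arrays, high percentiles there follow from the choice. Their contrast with control is therefore a description and no test. Tdrkh lay between 76.6 and 79.1 on the shRNA arrays and at 60.7 and 65.2 on control 1 and control 2.

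**Figure D3:**
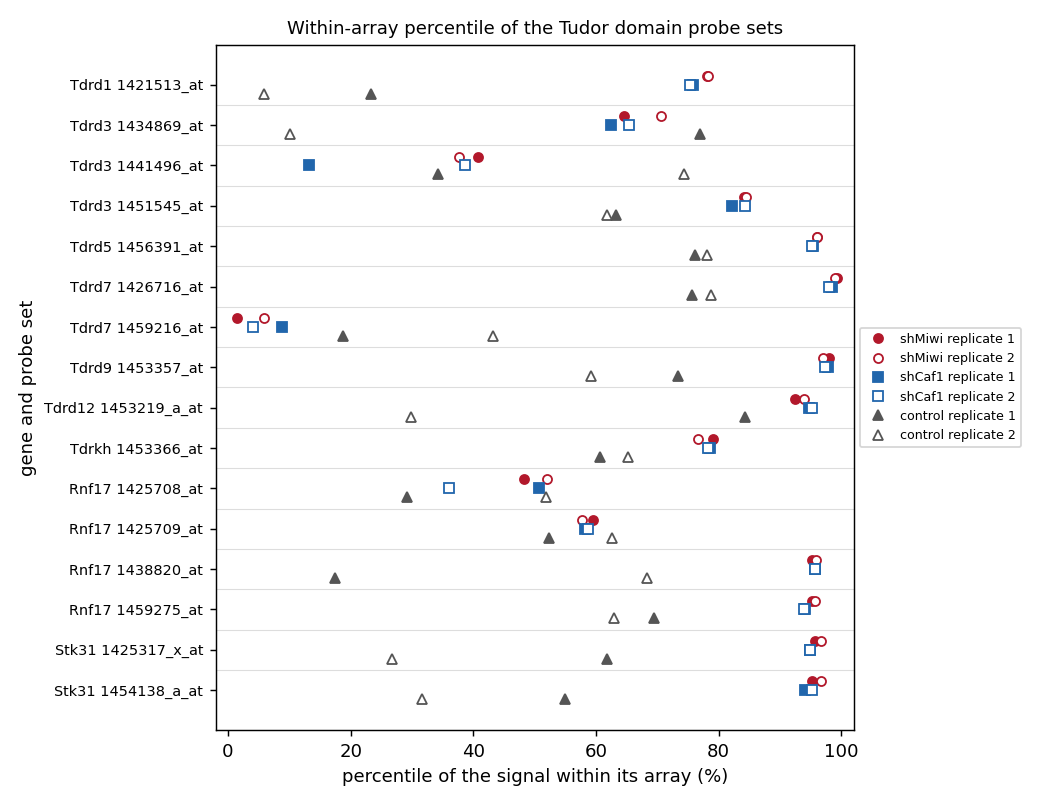
Percentile of the signal within its own array (x axis, percent) for the 16 Tudor domain probe sets on the shMiwi (circles), shCaf1 (squares) and control (triangles) arrays, replicate 1 filled and replicate 2 open. The bright rows, which were chosen by their signal on the shRNA arrays, sit between percentiles 92.5 and 99.2 there, and no control array exceeds 84.2 in any row.

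Markers of other stages and cell types were read in the same way, and their part in these differences was not tested. Of 14 probe sets for 13 pachytene spermatocyte genes, the stage at which many Tudor genes are made, 8 rose in shMiwi and 8 in shCaf1 and 0 fell, and of 9 probe sets for 8 round spermatid genes 4 rose in each and 0 fell. Summed pachytene signals were 62727 and 67642 in shMiwi, 69479 and 72041 in shCaf1, and 5131 and 21739 in control. Round spermatid sums were 54319 and 54389 in shMiwi, 65522 and 69709 in shCaf1, and 2798 and 13120.3 in control. Sertoli cell genes, somatic support cells of the tubule, had 0 rises and 1 fall among 15 probe sets in either comparison, with sums of 31687 and 28900 in shMiwi, 30547 and 30445 in shCaf1, and 6390 and 28996 in control. Leydig cell genes had 2 rises and 0 falls among 8 probe sets in either comparison. Spermatogonial genes had 1 rise and 2 falls among 15 probe sets in shMiwi, and 1 rise and 1 fall in shCaf1. Endothelial genes had 0 rises and 1 fall among 8 in shMiwi and none in shCaf1, macrophage genes 1 rise and 1 fall among 8 in shMiwi and 0 rises and 1 fall in shCaf1, and peritubular myoid genes, 7 probe sets, no call. By limma 0 of the 27 elongating spermatid probe sets passed against control in either comparison. These counts stand beside 4.90% higher and 13.8% lower over all probe sets in shMiwi, and 3.72% and 9.07% in shCaf1. After rescaling on the hybridization controls, where 67.5% and 59.0% of all probe sets were higher, the pachytene and round spermatid probe sets were all higher in both comparisons, as were 13 of the 15 Sertoli probe sets in each. On that scale 13 of the 27 elongating spermatid probe sets were higher in shMiwi and 10 in shCaf1, and 0 were lower.

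Between the knockdowns, where both groups had close replicates, no Tudor probe set passed on the deposited scale. The counts were 0 of 16 higher and 0 of 16 lower in shMiwi against shCaf1 by limma, beside 0.597% and 0.664% of all probe sets, and 5 of the 16 had an unadjusted p under 0.05, beside 16.9% of all. That count was 4 without shMiwi replicate 1, 3 without shMiwi replicate 2, 2 without shCaf1 replicate 1 and 1 without shCaf1 replicate 2. Over all probe sets the main fit had 7598 with an unadjusted p under 0.05. After centring on the median the count was 2 of the 16, beside 7132 over all probe sets. With all 6 arrays in 1 model it was 0, where only 361 of all probe sets were under 0.05, so this 0 was not particular to the 16. It was also 0 with array weights and without the intensity trend, where 6659 and 5902 of all probe sets were under 0.05. Differences ran from -0.41 to 0.63 with a median of 0.26, beside 0.00 over all probe sets, and 12 of the 16 lay above 0. In 7 of the 16 the shMiwi arrays both read above the shCaf1 arrays, beside 23.9% of all probe sets, and in 1, Tdrd12, they both read below, beside 22.6%. Replicate differences had a median of 0.26 in shMiwi, 0.12 in shCaf1 and 1.17 in control over the 16 probe sets.

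For Tdrd12 the log2 difference between the knockdowns was -0.41 (SE 0.13, 95% interval -0.73 to -0.10, limma adjusted p = 0.181), with the 4 signals given above not overlapping. On the scale of the hybridization controls this difference was -0.02 (adjusted p = 0.973). The bright Rnf17 probe sets stood at 0.36 for 1459275_at (SE 0.12, 95% interval 0.08 to 0.63, adjusted p = 0.180) and -0.07 for 1438820_at (-0.35 to 0.22, adjusted p = 0.850). Their intervals overlapped, and whether they differed from each other was not tested. Tdrd7 read higher on both shMiwi arrays by 0.33 (bright probe set, SE 0.11, interval 0.06 to 0.60, adjusted p = 0.202) and Tdrd1 by 0.39 (SE 0.14, interval 0.07 to 0.72, adjusted p = 0.210). Stk31 differed by 0.34 with either probe set (adjusted p = 0.269 and 0.407), a value that came to 0.16 and 0.10 without shMiwi replicate 2 and to 0.51 and 0.59 without shMiwi replicate 1. Tdrd5 (0.18, interval -0.05 to 0.42), Tdrd9 (-0.14, interval -0.47 to 0.19) and Tdrkh (0.02, interval -0.36 to 0.40) had intervals that include 0, and for these 3 genes they exclude a 2-fold difference on this scale.

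Rescaling on the hybridization controls shifted all probe sets upward in shMiwi, with a median of 0.31 over all of them, and then 2 of the 16 passed as higher. These were Tdrd1 at 0.78 (SE 0.20, limma adjusted p = 0.0441) and the bright Rnf17 probe set 1459275_at at 0.75 (SE 0.19, adjusted p = 0.0468), where 6.63% of all probe sets were called higher and 0.255% lower. Among elongating spermatid markers, 11 of 27 probe sets fell in shMiwi against shCaf1 on the deposited scale and 1 of 27 after rescaling, and the part of that shift in the Tudor values was not tested.

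**Figure D4:**
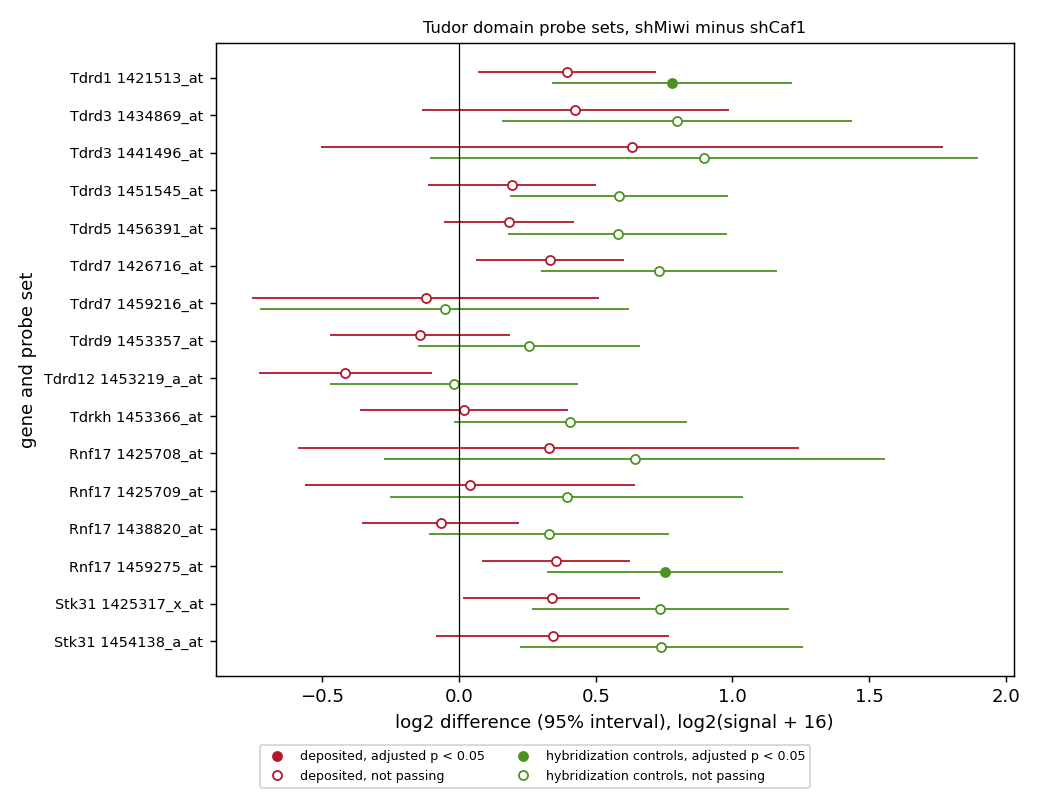
Log2 differences, shMiwi minus shCaf1, with 95% intervals for each Tudor domain probe set on the deposited scale (red) and after rescaling on the hybridization controls (green); filled points have an adjusted p under the threshold of 0.05. No red point is filled, Tdrd12 is the red point farthest to the left, and the filled green points are Tdrd1 and 1 Rnf17 probe set.

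Partners of these proteins were taken from a list of 22 germ granule and piRNA pathway genes, of which 20 had probe sets, 28 in all. Of the 28, 8 rose and 2 fell in shMiwi against control, 6 rose and 0 fell in shCaf1 against control, and 0 rose and 1 fell in shMiwi against shCaf1, where the shares of all probe sets were 4.90% and 13.8%, 3.72% and 9.07%, and 0.597% and 0.664%. After rescaling on the hybridization controls 26, 24 and 5 of the 28 were higher and 0 lower in these comparisons, beside 67.5%, 59.0% and 6.63% of all probe sets. Ddx4, the germ cell helicase Vasa, read 8454 and 10382 in shMiwi, 8079 and 10316 in shCaf1, and 14.2 and 488 in control, and rose in shMiwi by 6.25 (SE 1.39, limma adjusted p = 0.0456). Mael, a granule protein of transposon silencing, read 8781 and 10359 in shMiwi, 9783 and 10651 in shCaf1, and 24.5 and 1295 in control, and its difference of 5.37 in shMiwi did not pass (SE 1.69, adjusted p = 0.0798). Neither differed between the knockdowns beyond error, with 0.04 for Ddx4 (adjusted p = 0.944) and -0.10 for Mael (adjusted p = 0.771).

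The fall in shMiwi against shCaf1 within that list on the deposited scale was Piwil1 itself. Its next partners by p were Mybl1, the A-MYB factor that switches on piRNA genes at pachytene, and Gtsf1, a zinc finger partner of PIWI proteins. Mybl1 read 1721 and 2408 in shMiwi, 1162 and 1170.2 in shCaf1, and 117 and 213 in control, and shMiwi was above shCaf1 by 0.80 without passing (SE 0.17, limma adjusted p = 0.0726), or by 1.19 on the scale of the hybridization controls (adjusted p = 0.0231). Gtsf1 read, with the probe set of lowest p, 13982 and 14194 in shMiwi, 18501 and 21482 in shCaf1, and 28.8 and 27116 in control, a difference of -0.50 between the knockdowns (adjusted p = 0.0998), or -0.10 after rescaling (adjusted p = 0.816).

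Tudor domain genes with roles outside the germ granule made a second list, 23 genes of which 21 had probe sets, 60 in all. Against control 7 rose and 6 fell in shMiwi, and 6 rose and 2 fell in shCaf1, with medians of -0.44 and -0.53, beside -1.20 over all probe sets in each. Over all probe sets 4.90% were higher and 13.8% lower in shMiwi, and 3.72% and 9.07% in shCaf1. After rescaling, 48 of the 60 were higher in shMiwi and 42 in shCaf1 with 0 lower, and the medians were 3.04 and 2.58, beside 1.93 and 1.62 over all. Akap1, a mitochondrial anchor protein with a Tudor domain, read 4166 and 4308.5 in shMiwi, 7331 and 7795 in shCaf1, and 274 and 17494 in control. It fell in shMiwi against shCaf1 (log2 difference -0.83, SE 0.10, limma adjusted p = 0.0257), the 1 call of this list between the knockdowns on the deposited scale, and stood at -0.44 (adjusted p = 0.173) after rescaling. On the rescaled values 8 of the 60 were higher in shMiwi than in shCaf1 and 0 lower, beside 6.63% and 0.255% of all probe sets. Phf20, a chromatin reader, read 2889 and 2836 in shMiwi, 2084 and 1875 in shCaf1, and 71.3 and 260.4 in control, with 0.53 between the knockdowns (limma adjusted p = 0.0720), or 0.93 after rescaling, where it passed (adjusted p = 0.0234).

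The members' patterns over the 6 arrays were compared after each probe set was centred on its own mean. The median profile of the brightest probe set of each of the 9 genes was 1.03 and 1.06 in shMiwi, 0.94 and 0.82 in shCaf1, and -1.48 and -2.67 in control. Rnf17 (1459275_at) and Tdrd1 lay nearest to it, at Euclidean distances of 0.41 and 0.45 on the log2 scale, and Tdrkh and Tdrd3 (1451545_at) lay farthest, at 3.02 and 2.19. Outside the family the nearest genes over the 6 arrays were Mphosph8 at 0.22, Slco6d1 at 0.22, St13 at 0.22, Hdac2 at 0.24 and Bcap29 at 0.24. Mphosph8, for example, read 2241 and 2053 in shMiwi, 1961 and 1672 in shCaf1, and 358 and 136 in control.

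Promoter sequence of the members was also examined, and a link between it and the array values was not tested. RefSeq windows (GRCm38.p6) were held for 8 of the 10 genes, 14 windows in all, with none for Tdrd6 and Rnf17, and the 250 bases before each start were searched on both strands. These windows had a median of 20 CpG beside 6 over all 32851 windows, but they ran from 3 to 40. The Tdrd9 window held 8 and the Tdrd12 windows 6 and 5. A motif of the factor NRF1, the letters GCGCA, any single base and then GCGC, occurred in 4 of the 14 windows, 1 each for Tdrd1, Tdrd5, Tdrd7 and Stk31, beside 3.74% of all windows. Among windows with at least 20 CpG it occurred in 4 of 7 of these genes' windows, beside 12.7% of 5896. The motif was chosen after these sequences had been read, and windows of 1 gene can overlap. The stretches that hold the match are shown for these 4 genes. Capitals mark the match, and in Stk31 a pair of overlapping matches.
Tdrd1 (chr19:56826204-56826233, plus strand): ggagtaaactGCGCAGGCGCgggccccgca
Tdrd5 (chr1:156303412-156303441, minus strand): ggcccgcagtGCGCAGGCGCgcgagaccct
Tdrd7 (chr4:45972137-45972166, plus strand): aggacggcgtGCGCACGCGCagaaaccgct
Stk31 (chr6:49395524-49395553, plus strand): gcacctcGCGCATGCGCAGGCGCagtgcgt
Tdrd9, which rose in both knockdowns against control, had no such match and held the E-box letters CACGTG at 2 places, shown in capitals in the 250 bases before its start.
Tdrd9 (chr12:111971309-111971558, plus strand): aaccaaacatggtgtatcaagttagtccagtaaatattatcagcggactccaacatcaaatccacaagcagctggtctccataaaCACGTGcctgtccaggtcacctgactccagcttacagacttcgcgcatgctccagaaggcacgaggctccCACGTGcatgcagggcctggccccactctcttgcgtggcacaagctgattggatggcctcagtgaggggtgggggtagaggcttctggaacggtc

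CACGTG occurred in 5 of the 14 windows, from Tdrd1, Tdrd9 and Stk31, beside 6.02% of all windows, and in 3 of the 7 with at least 20 CpG, beside 10.1% of such windows. The Tdrd1 windows that hold it overlap and share the same site, as do those of Stk31, so sites are fewer than windows. The letters AACTG, the core bound by A-MYB, occurred in 7 of the 14 windows, from Tdrd1, Tdrd7, Tdrkh and Stk31, beside 39.1% of all windows, and in 4 of the 7 with at least 20 CpG, beside 18.3%. TGACGTCA, the full cyclic AMP response element bound by the spermatid factor CREM, occurred in 0 of the 14, beside 1.55% of all windows. Tdrkh, which did not pass against control on the deposited scale, held AACTG and neither CACGTG nor the NRF1 motif, and the windows of Tdrd3 and Tdrd12 held none of these letters.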

How the data were processed

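The authors deposited signal intensities on a linear scale, with a single value for each probe set on each array. The submitters' processing notes name MAS5, with no version or build given in the sources used here, and the values show a 2% trimmed mean of 500 on every array. Detection calls were not used here. Genes were named from the platform annotation: of 45037 probe sets (64 control probe sets left out), 34945 name 1 gene, 932 several and 9160 none. Symbols of all 9 genes equal those of RefSeq (GRCm38.p6).

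Signals were taken to log2 after adding 16, with no filter; 14 of the 16 members exceed the 40th percentile of mean log2. Tests came from limma 3.58.1, run in R 4.3.3 (eBayes with an intensity trend, 2 residual degrees of freedom), fitted on the 2 groups of a comparison, because the control arrays spread more widely than the others; the code was tested on simulated data. The number of arrays limits precision. Members and lists were chosen with earlier results of these data known. The text names every member, Piwil1, Ddx4, Mael, the list members with the lowest p between the knockdowns and the 5 genes nearest in pattern. The promoter motifs were chosen after the sequences and values had been seen. Alternatives covered constants, scalings, filter, variance models, replicate block, size rule and each array left out.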

Additional observations from a re-analysis of the deposited data

How the results depend on the processing

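The alternatives bear mostly on the comparisons with control, where the number of arrays and the wide spread between the control arrays limit every call. Of 16 Tudor probe sets, 9 passed for shMiwi and 6 for shCaf1 against control; the numbers were 0 and 0 with a constant of 64, 0 and 0 after quantile normalization, and 14 and 14 on the hybridization controls, and ranged from 0 to 16 for either with an array left out. For shCaf1 the count was 11 with all 6 arrays in 1 model, 11 with a replicate block and 14 by the size rule (2-fold apart with no overlap). For shMiwi against shCaf1 it was 0, with 2 on the hybridization controls and 1 (Tdrd12, adjusted p = 0.0412) with the replicate block.

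Over all probe sets the calls were 8420 (shMiwi), 5758 (shCaf1) and 568 (shMiwi against shCaf1). They became 0, 0 and 354 with a constant of 64, 30437, 26612 and 3103 on the hybridization controls, 18076, 17244 and 0 with 6 arrays in 1 model, 4244, 3493 and 106 with weights per group, 14348, 13664 and 2962 with the replicate block, and 29581, 29048 and 1544 by the size rule. Quantile normalization gave 0 and 0 against control, though 12779 (shMiwi) and 12050 (shCaf1) probe sets had an unadjusted p under 0.05. Centring on the median gave 5239 for shMiwi and 285 between the knockdowns, where the filter gave 1981 and eBayes without trend 0. Unadjusted p-values under 0.05 numbered 17504 (shMiwi) and 16843 (shCaf1) against control with a constant of 64, and 361 with 6 arrays in 1 model and 5902 without trend between the knockdowns. With an array left out the ranges were 33 to 35628, 8 to 35176 and 3 to 387.

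Signs of single probe sets turned as follows, all of them in comparisons where the probe set had not passed. Tdrd3 1434869_at became -0.095 in shCaf1 with a constant of 64, and ranged from -1.51 to 2.78 in shMiwi and from -1.93 to 2.36 in shCaf1 with an array left out. Tdrd3 1441496_at became 1.21 and 0.32 on the hybridization controls. Rnf17 1425708_at became 0.53 and 0.14 (quantile), 0.64 and 0.29 (median) and 2.17 and 1.53 (hybridization), and Rnf17 1425709_at 0.059 and 0.046, 0.33 and 0.27, and 2.62 and 2.23. Between the knockdowns, Tdrd9 became 0.26 and Rnf17 1438820_at 0.33 on the hybridization controls, and Tdrkh -0.050 after quantile normalization. With an array left out, the difference between the knockdowns ranged from -0.32 to 0.037 for Tdrd9, -0.15 to 0.20 for Tdrkh, -0.098 to 0.75 for Rnf17 1425708_at, -0.11 to 0.19 for Rnf17 1425709_at and -0.19 to 0.058 for Rnf17 1438820_at.
Arrays with the same replicate number shared little deviation (r = -0.007 for shMiwi with control, 0.025 for shCaf1 with control and 0.078 for shMiwi with shCaf1). With 2 arrays per group these values cannot show whether samples were paired, and the labels name no pairing. The causes of these changes were not tested.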
